A study of Mus musculus with 8 samples.

Results

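The ERK cascade, its feedback inhibitors and the genes that ERK switches on were followed through 41 genes in the retinas of PD-L1 knockout mice and of control mice with choroidal neovascularization (CNV). The genes were taken by symbol from a table of 25477 genes and kept in 3 lists: 18 components of the cascade, 8 feedback genes and 15 early response genes. All 41 were found, and 39 held enough reads to be tested, all but the early response genes Fosl1 and Egr2. None of the 39 passed the test of knockout against control, against 2.55% of all 16861 genes tested. At that share, no call in a list of this length is no result about the members.

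The data are gene counts from polyadenylated RNA of 8 retina samples of mice. In 4 of them the genotype is labelled PD-L1 knockout and the titles carry KO-CNV, and in the other 4 it is labelled control and the titles carry WT-CNV. Both groups carry CNV, the growth of new vessels from the choroid under the retina, and no sample without it was compared. The sources used here do not give the strain, age, deleted part of the gene, way of inducing CNV or time of sampling, nor whether each sample came from a separate animal. The p-values thus rest on the spread among the 8 samples alone, and that spread may be technical. The study's title names microglial activation, vascular leakage and ERK.

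Growth factors such as fibroblast growth factors bind receptor tyrosine kinases, whose adaptors recruit exchange factors that load the small G protein Ras. Ras activates Raf kinases, Raf phosphorylates MEK, and MEK phosphorylates ERK, which then moves to the nucleus. ERK activity is quickly followed by transcription of early response genes such as Fos and Egr1, and of inhibitors such as Dusp6 and Spry2 that restrain the cascade. In the retina the cascade is known to act in Müller glia after injury. Its activation is by phosphorylation, which transcript counts do not measure.

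The libraries carried the level of the targeted gene that their labels imply. Cd274, the gene of PD-L1, held 12, 15, 9 and 11 counts in the knockout libraries 1 to 4 and 148, 117, 153 and 165 counts in the control libraries 1 to 4 (log2 fold change -3.73, edgeR adjusted p = 1.57e-05). Total counts were 31743404 to 36438248 per library. Lens transcripts differed widely: the summed CPM (counts scaled to library size) of 15 lens genes was 2748 in knockout 3 and 4.13 to 33.1 in the other knockouts, and 6461 and 1882 in controls 2 and 3 and 21.6 and 49.0 in the other controls. Haemoglobin transcripts separated the groups: all 4 genes fell (median log2 fold change -2.28), with sums of 1.59 to 4.03 CPM in the knockouts and 9.86 to 14.1 CPM in the controls. Of 8 endothelial markers 1 rose, all 8 estimates were positive (median 0.54), and sums were 189.6 to 208 CPM in the knockouts and 142 to 195 CPM in the controls. The sum over 10 pigment epithelium markers was 157 CPM in knockout 1 and 314 to 331 CPM in the other knockouts. In the controls it was 97.0 to 281 CPM. Of the 10 markers 1 rose and none fell, with 6 positive and 4 negative estimates. The part of the haemoglobin, endothelial and pigment epithelium lists in the ERK gene values was not tested. The photoreceptors of the labelled tissue were well represented, with a sum over 8 rod markers of 36976 to 54059 CPM in the knockouts and 37446 to 48954 CPM in the controls. Of all 16861 genes tested, 430 passed an adjusted p of 0.05, which is 2.55% (203 or 1.2% higher and 227 or 1.35% lower in the knockout; 207 and 131 when library totals alone set the scale).

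The start regions of 3 genes are shown because their values carry most of what follows: Dusp6 and Spry2, feedback inhibitors whose estimates pointed opposite ways, and Junb, the gene with the smallest p. Each line gives the 150 bases before the RefSeq start on the gene's own strand (GRCm38.p6), with every GGAA, the core letters bound by ETS factors that ERK phosphorylates, in capitals on either strand (TTCC where it lies on the other strand). The windows are chr10:99263081-99263230 (plus strand) for Dusp6, chr14:105896820-105896969 (minus strand) for Spry2 and chr8:84978749-84978898 (minus strand) for Junb.
Dusp6: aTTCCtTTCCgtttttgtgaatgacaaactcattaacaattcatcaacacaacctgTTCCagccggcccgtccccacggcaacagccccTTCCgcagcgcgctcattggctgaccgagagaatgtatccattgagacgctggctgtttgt
Spry2: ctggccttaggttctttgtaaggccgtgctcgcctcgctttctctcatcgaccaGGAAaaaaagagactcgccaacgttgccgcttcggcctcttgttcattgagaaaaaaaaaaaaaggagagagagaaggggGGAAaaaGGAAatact
Junb: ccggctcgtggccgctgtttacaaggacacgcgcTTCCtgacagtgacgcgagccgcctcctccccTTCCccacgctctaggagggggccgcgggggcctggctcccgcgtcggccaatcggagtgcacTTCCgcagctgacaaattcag
GGAA occurred 4 times in the Dusp6 window, each time on the other strand, 3 times in that of Spry2, each time on the gene's strand, and 3 times in that of Junb, each time on the other strand. These 4 letters are common: 80.8% of 32851 windows of the same length hold at least 1, with a median of 2. A match is only a description of the sequence.

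With edgeR's quasi-likelihood test, adjusted over all genes, none of the 39 tested genes in the 3 lists passed, against 2.55% of all genes, a share at which a count of 0 in a list of this length is no result about the members. At an unadjusted p under 0.05 there were 12 (7 higher and 5 lower in the knockout), against 21.3% of all genes tested (10.5% higher and 10.8% lower). By list they were 8 of 18 cascade genes (4 higher and 4 lower), 2 of 8 feedback genes (1 higher and 1 lower) and 2 of 13 early response genes (2 higher). The higher ones were Map2k1, Hras, Grb2, Rps6ka1, Dusp6, Junb and Ccnd1, and the lower ones Braf, Araf, Nras, Rps6ka3 and Spry2. In 4 genes the knockout and control libraries did not overlap, a count to be read against 11% of all genes. Junb, Grb2 and Rps6ka1 were the 3 that were higher in every knockout, as were 5.19% of all genes, and Rps6ka3 the 1 that was lower, as were 5.78%. Positive estimates were found for 27 of the 39, against 49.8% of all genes. DESeq2 called 2 members, Junb and Rps6ka1, against 8.47% of the 15591 genes that it gave an adjusted p. Myc was not among those 15591. The limma-voom fit called none, against 2.85% of all genes. Without control 4, edgeR called 5 (Junb, Map2k1, Nras, Rps6ka1 and Spry2), against 18.7% of all genes in that fit. Log2 fold changes (knockout over control) ran from -0.27 for Nras to 0.51 for Rps6ka1. Their median absolute size was 0.20, and that of all genes tested was 0.18.

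The estimates were bounded more closely in the cascade and feedback lists than in the early response list. For 28 of the 39 genes the 95% interval of the fold change lay within a 1.5-fold change in either direction, as it did for 57.0% of all genes tested. These were 16 of 18 cascade genes and 7 of 8 feedback genes, but 5 of 13 early response genes. The intervals are not adjusted for the number of genes. The widest belonged to Myc, the cell growth transcription factor, at -1.05 to 1.34, with 0.552 ± 0.405 CPM in knockouts and 0.498 ± 0.263 CPM in controls, levels that rest on few reads. Better read genes also had intervals past a 1.5-fold change, such as Egr1 at -0.25 to 0.81 and Ccnd1 at 0.04 to 0.66. Such intervals leave room for a change of that size.

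**Figure D1:**
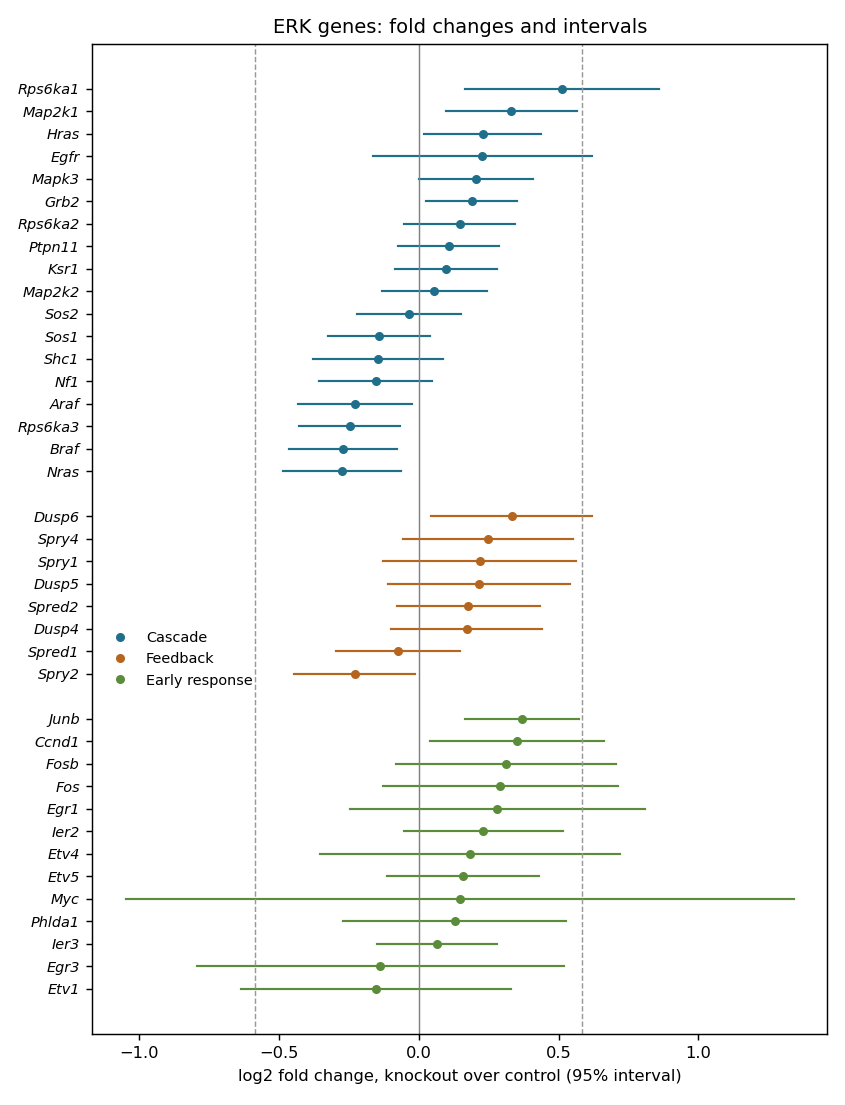
Log2 fold change of each tested ERK gene (knockout over control, x axis), with its 95% interval as a line; genes run down the page within the 3 lists, in order of size, and dashed lines mark a 1.5-fold change. The points sit between -0.27 and 0.51, and the interval of Myc is the widest.

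Among the 18 cascade components, estimates pointed both ways and none passed: 10 were positive, 8 negative, and the median log2 fold change was 0.08 (all genes -0.0011). Without knockout 3 that median was 0.05. Mapk3 (chromosome 7, 126759626 to 126765816), which encodes the kinase ERK1, had the highest level per length, at 46.0 ± 3.44 FPKM in the knockout and 39.4 ± 3.00 FPKM in the control (SD, n = 4 each). It stood at 69.9, 85.1, 87.4 and 82.3 CPM in knockouts 1 to 4 and at 61.6, 73.9, 73.8 and 72.4 CPM in controls 1 to 4. Knockout 1 lay below 3 of the controls, so the groups overlapped (log2 fold change 0.20, SE 0.10, edgeR adjusted p = 0.237). Egfr, the receptor of epidermal growth factor, had the lowest level per length of the list, at 1.33 ± 0.203 FPKM in the knockout and 1.12 ± 0.294 FPKM in the control.

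The MEK kinases phosphorylate ERK. Map2k1 (MEK1) stood at 75.6, 82.9, 91.8 and 89.8 CPM in knockouts 1 to 4, against 60.1, 65.3, 62.8 and 82.2 CPM in controls 1 to 4. Control 4 lay within the knockout range and the other 3 controls below all knockouts (log2 fold change 0.33, SE 0.11, edgeR adjusted p = 0.111). Without control 4 the log2 fold change was 0.44 and passed the test (adjusted p = 0.0043). Map2k2 (MEK2), at 66.2 to 79.0 CPM in the knockouts and 61.9 to 73.9 CPM in the controls, had a log2 fold change of 0.06 (SE 0.09).

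Estimates of both Raf kinases in the list were below 0. Braf averaged 161 ± 13.4 CPM across knockouts and 194 ± 13.04 CPM across controls (SD, n = 4 each), and the highest knockout, at 177 CPM, just passed the lowest control, at 176 CPM (log2 fold change -0.27, edgeR adjusted p = 0.114). Araf averaged 187 ± 21.5 CPM across knockouts and 219.7 ± 9.86 CPM across controls (log2 fold change -0.23, adjusted p = 0.187). Araf overlaps the gene Syn1, and without a stated strand setting the reads of the overlap cannot be told apart. Ksr1, the scaffold that brings Raf and MEK together, had a log2 fold change of 0.10 (SE 0.08), with 46.8 CPM in control 2 as the lowest of its 8 values.

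The Ras genes Hras and Nras pointed opposite ways. Hras stood at 37.5, 40.7, 41.6 and 44.1 CPM in knockouts 1 to 4 and at 31.7, 39.8, 36.0 and 32.4 CPM in controls 1 to 4 (log2 fold change 0.23, edgeR adjusted p = 0.203). Nras stood at 41.1, 39.4, 36.9 and 44.6 CPM in knockouts 1 to 4 and at 50.0, 50.1, 53.7 and 42.1 CPM in controls 1 to 4 (log2 fold change -0.27, adjusted p = 0.138). The count of Hras over that of Nras, which no scaling of libraries can move, was 0.911, 1.03, 1.13 and 0.990 in knockouts 1 to 4 and 0.634, 0.795, 0.672 and 0.771 in controls 1 to 4. Every knockout ratio was above every control ratio, in a pair picked after its values were seen, so this is a description with no test.

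The ribosomal S6 kinases (RSK) are substrates of ERK that carry its signal further. Rps6ka1 (RSK1, chromosome 4, 133847290 to 133887797) stood at 8.03, 9.74, 11.7 and 10.1 CPM in knockouts 1 to 4, against 7.37, 7.51, 5.48 and 7.43 CPM in controls 1 to 4. All 4 knockouts lay above all 4 controls, with the lowest value in control 3 (log2 fold change 0.51, SE 0.16, edgeR adjusted p = 0.102). DESeq2 called it (adjusted p = 0.0399), and so did edgeR without control 4 (adjusted p = 0.0358); with the log2 lens sum as a covariate the log2 fold change was 0.55 (adjusted p = 0.113). Without the 3 lens-rich libraries it was 0.34 (adjusted p = 0.74), in a fit of 3 knockouts against 2 controls that called 15 of all genes. The sum over 9 microglial markers was 142 to 177 CPM in the knockouts and 82.0 to 120.2 CPM in the controls, without overlap. Of the 9 markers 5 rose and none fell, against 1.2% of all genes called higher and 1.35% called lower. The part of the microglial list in the Rps6ka1 values was not tested. In bulk tissue a change in the number of cells and in RNA per cell cannot be told apart.

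Rps6ka3 (RSK2) lay on the other side: 82.1, 72.9, 75.4 and 81.3 CPM in knockouts 1 to 4 and 87.5, 87.3, 92.8 and 102 CPM in controls 1 to 4. All knockouts were below all controls (log2 fold change -0.25, SE 0.08, edgeR adjusted p = 0.121), and the value was -0.26 without the lens-rich libraries. Rps6ka2 (RSK3), at 155 ± 10.7 CPM across knockouts and 140.1 ± 14.3 CPM across controls, had a log2 fold change of 0.15 (adjusted p = 0.379). The count of Rps6ka1 over that of Rps6ka3 was 0.0978 to 0.156 in the knockouts and 0.0591 to 0.0860 in the controls, again a pair picked after its values were seen.

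Upstream of Ras stand the receptors, adaptors and exchange factors. Egfr lay at 13.7 to 19.4 CPM in the knockouts and 10.02 to 17.6 CPM in the controls, with wide overlap (log2 fold change 0.23, SE 0.18, edgeR adjusted p = 0.485). Grb2, the adaptor that ties receptors to Sos, stood at 71.7, 74.7, 75.6 and 70.5 CPM in knockouts 1 to 4 and at 65.7, 62.8, 60.6 and 67.5 CPM in controls 1 to 4. The groups lay apart by a small step (log2 fold change 0.19, SE 0.08, edgeR adjusted p = 0.18). Sos1 and Sos2, the exchange factors that load Ras, had log2 fold changes of -0.14 and -0.03. Sos1 lay at 54.1 to 56.3 CPM in the knockouts and 53.9 to 67.0 CPM in the controls, and Sos2 at 43.2 to 50.4 CPM in the knockouts and 43.9 to 50.8 CPM in the controls. The adaptor Shc1, at 20.3 to 20.8 CPM in the knockouts and 19.3 to 26.1 CPM in the controls, had a log2 fold change of -0.15, and its spread was far narrower among knockouts than among controls. Ptpn11 (SHP2), a phosphatase needed for full Ras activation, stood at 143 to 173 CPM in the knockouts and 145 to 156 CPM in the controls (log2 fold change 0.11). Nf1, the GTPase-activating protein that switches Ras off, had one of -0.15 (SE 0.09), with 120.3 to 134 CPM in the knockouts and 118 to 153 CPM in the controls.

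**Figure D2:**
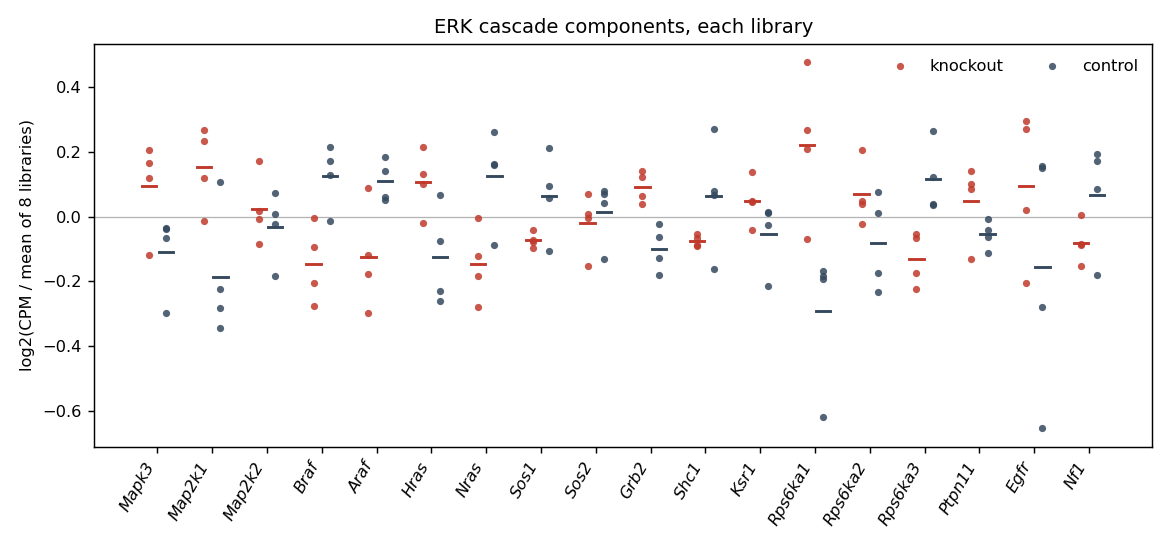
Level of each cascade component in each of 4 knockout (left, red) and 4 control (right, dark) libraries, as log2 of the CPM over the mean of all 8; short lines are group means. Rps6ka1 and Grb2 have all knockout points above all control points, and Rps6ka3 has them below.

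Of the 8 feedback genes none passed: 6 estimates were positive, 2 negative, and the median log2 fold change was 0.20. Without knockout 2 the median was 0.11. Dusp6 (chromosome 10, 99263231 to 99267489), a phosphatase that is induced by ERK and dephosphorylates it, stood at 13.7, 16.9, 15.2 and 18.6 CPM in knockouts 1 to 4 and at 14.7, 11.5, 11.5 and 13.4 CPM in controls 1 to 4. Only knockout 1 lay among the controls, below control 1 (log2 fold change 0.33, SE 0.13, 95% interval 0.04 to 0.62, edgeR adjusted p = 0.181). Leaving out 1 library at a time gave 0.26 to 0.41, with adjusted p from 0.0849 to 0.381. Without the lens-rich libraries the log2 fold change of Dusp6 was 0.23 (edgeR adjusted p = 0.803). With the log2 lens sum as a covariate it was 0.28 (adjusted p = 0.297).

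Spry2 (chromosome 14, 105891947 to 105896819), an inhibitor of receptor tyrosine kinase signalling, pointed the other way at 51.4, 61.7, 55.6 and 54.8 CPM in knockouts 1 to 4 and 63.1, 72.0, 71.5 and 55.3 CPM in controls 1 to 4. Control 4 lay among the knockouts, and the highest values were those of controls 2 and 3 (log2 fold change -0.23, SE 0.10, edgeR adjusted p = 0.214). Those controls are lens-rich, with lens sums of 6461 and 1882 CPM. Knockout 3, with a lens sum of 2748 CPM, held 55.6 CPM of Spry2. The part of lens transcripts in the Spry2 values was not tested. Without the 3 lens-rich libraries, which also leaves out those highest values, the log2 fold change was -0.07, from 3 knockouts against controls 1 and 4. With the log2 lens sum as a covariate it was -0.17. Without control 4 it was -0.30 and passed the test (adjusted p = 0.0296). Dusp6 counts over Spry2 counts were 0.266, 0.273, 0.274 and 0.340 in knockouts 1 to 4 and 0.233, 0.160, 0.161 and 0.242 in controls 1 to 4. The ratio was thus higher in every knockout than in every control, in a pair named with earlier results known and given with no test.

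The other feedback genes spanned log2 fold changes of -0.07 to 0.25. Spry4 and Spry1, relatives of Spry2, were at 0.25 (SE 0.14) and 0.22 (SE 0.16). Spry4 lay at 9.78 to 11.7 CPM in the knockouts and 7.46 to 9.97 CPM in the controls, and Spry1 at 7.30 to 8.76 CPM in the knockouts and 5.69 to 8.37 CPM in the controls, so that Spry2 was the 1 Sprouty gene of 3 with a negative estimate. The nuclear phosphatases Dusp4 and Dusp5 were at 0.17 and 0.21, and knockout 2 was the highest library for both, at 41.6 and 23.0 CPM. Without knockout 2 their values were 0.06 and 0.07. Spred1 and Spred2, which recruit neurofibromin to Ras, were at -0.07 and 0.18. Spred1 had the highest level per length of the list, at 14.4 ± 1.59 FPKM in the knockout and 14.96 ± 1.46 FPKM in the control, and Spred2 the lowest, at 0.630 ± 0.0366 FPKM in the knockout and 0.550 ± 0.0792 FPKM in the control.

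Müller glia, in which the cascade is known to act, had a median log2 fold change of 0.19 over 8 markers. None of the 8 passed, all 8 estimates were positive, and 2 markers were higher in every knockout, against 5.19% of all genes. Their sums were 3668 to 5049 CPM in the knockouts and 3527 to 4391 CPM in the controls. The part of these markers in the feedback values was not tested.

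**Figure D3:**
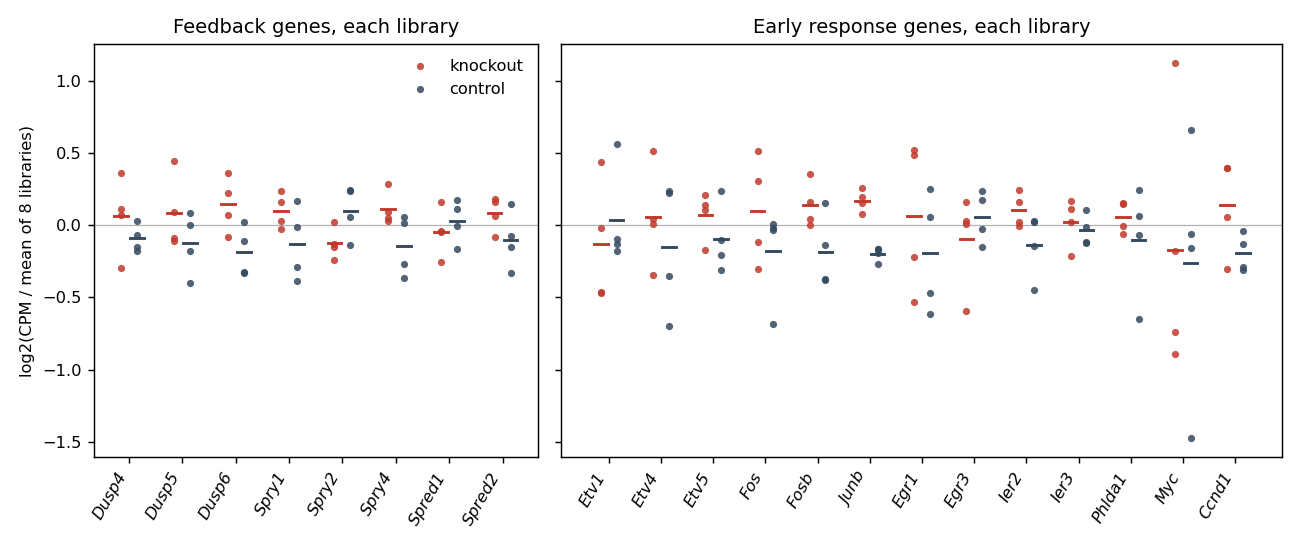
Level of each feedback gene (left panel) and each tested early response gene (right panel) in 4 knockout (red) and 4 control (dark) libraries, as log2 of the CPM over the mean of all 8, with short lines for group means. Junb has all knockout points above all control points, and Myc has the widest spread.

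Of the 15 early response genes, 13 were tested, 11 had positive estimates, 2 had negative ones and the median log2 fold change was 0.18, with none past the threshold. Junb (chromosome 8, 84976909 to 84978748), a subunit of the AP-1 transcription factor, had the smallest p of the 39 tested genes of the 3 lists. It stood at 25.1, 23.3, 24.0 and 22.2 CPM in knockouts 1 to 4 and at 18.7, 18.8, 18.3 and 17.4 CPM in controls 1 to 4. The lowest knockout was above the highest control, and the gap was wider than the range within either group (log2 fold change 0.37, SE 0.09, edgeR adjusted p = 0.0574). The value lay between 0.33 and 0.40 in the fits that left out 1 library and was 0.39 without the lens-rich libraries. It passed the test in DESeq2 (adjusted p = 0.0118) and without control 4 (adjusted p = 0.0234), and not without any of the other 7 libraries (adjusted p up to 0.176).

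The remaining AP-1 genes varied more. Fos, the classical early response gene, stood at 20.0, 23.1, 13.1 and 14.95 CPM in knockouts 1 to 4 and at 16.3, 15.99, 10.1 and 15.8 CPM in controls 1 to 4. The groups overlapped widely, and library 3 was the lowest in each of them (log2 fold change 0.29, SE 0.19, edgeR adjusted p = 0.4). Fosb stood at 5.54 ± 0.634 CPM across knockouts and 4.46 ± 0.815 CPM across controls (log2 fold change 0.31, adjusted p = 0.335). Fosl1 (Fra-1) held 16, 7, 11 and 7 counts in the knockouts 1 to 4 and 6, 6, 2 and 7 counts in the controls 1 to 4, too few to test.

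Egr1, a zinc finger transcription factor induced like Fos, showed a similar order of libraries. It stood at 27.3, 26.7, 13.1 and 16.4 CPM in knockouts 1 to 4 and at 22.7, 19.8, 12.4 and 13.8 CPM in controls 1 to 4. In both groups libraries 1 and 2 were above libraries 3 and 4, and the step within each group was larger than the difference between the group means (log2 fold change 0.28, SE 0.24, edgeR adjusted p = 0.525). With the log2 lens sum as a covariate the values were 0.02 for Egr1 and 0.10 for Fos, while without the 3 lens-rich libraries they were 0.37 and 0.28. The relative Egr3 had a log2 fold change of -0.14 (SE 0.30) at about 1 CPM, and Egr2, with 3, 3, 3 and 13 counts in the knockouts 1 to 4 and 3, 0, 0 and 8 in the controls 1 to 4, was too low to test.

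**Figure D4:**
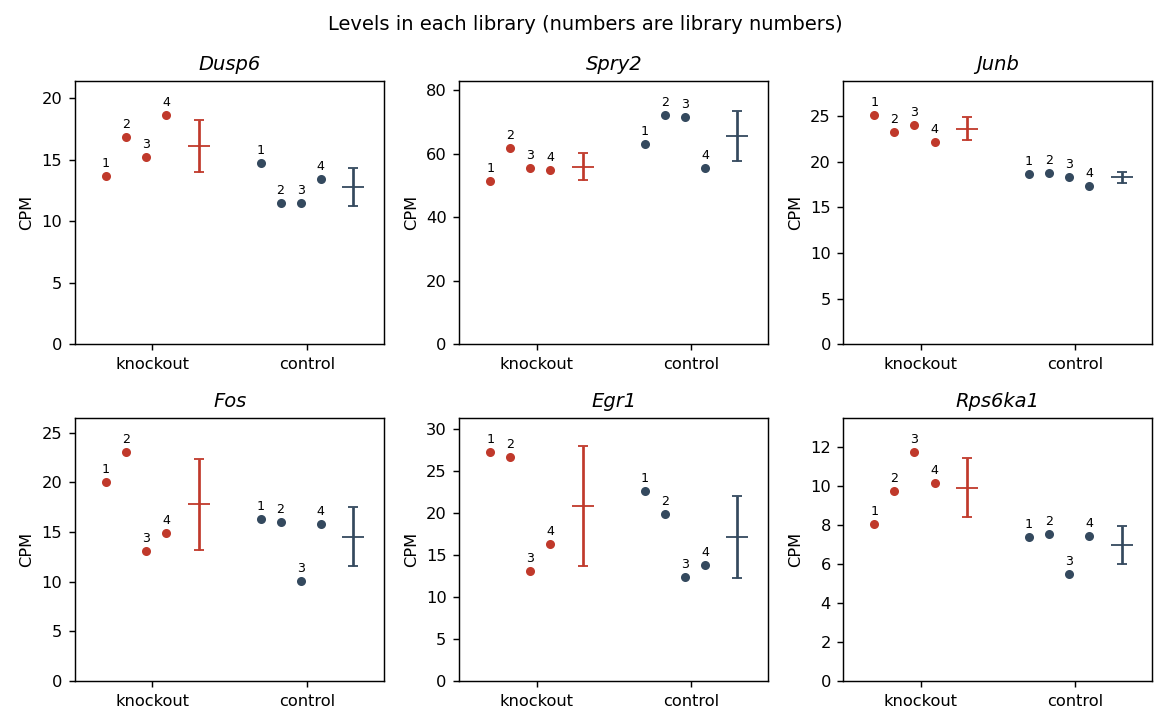
CPM (y axes, from 0) of 6 genes in knockout (left, red) and control (right, dark) libraries; each point is a library with its number, and the bar to the right of the points is the mean with its SD (n = 4). Junb and Rps6ka1 separate the groups, Dusp6 and Spry2 overlap in 1 library or more, and Fos and Egr1 differ more within groups than between them.

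The PEA3 family of ETS factors (Etv1, Etv4 and Etv5), transcribed downstream of fibroblast growth factor signalling, gave log2 fold changes of -0.15, 0.18 and 0.16, with SE of 0.22, 0.25 and 0.13. Control 4 was the highest library of all 8 for Etv1 and Etv5, at 16.7 and 41.7 CPM. Ccnd1, the cyclin D1 gene through which ERK promotes entry into the cell cycle, stood at 24.4, 31.3, 39.5 and 39.5 CPM in knockouts 1 to 4 and at 29.2, 24.3, 24.6 and 27.4 CPM in controls 1 to 4. Knockouts 2 to 4 were above all controls and knockout 1 was below 3 of them (log2 fold change 0.35, SE 0.14, edgeR adjusted p = 0.187). Ier3, a survival gene of the immediate early response, had the highest level per length of the list, at 44.0 ± 3.94 FPKM in the knockout and 41.5 ± 2.86 FPKM in the control, and a log2 fold change of 0.06 (SE 0.10). Ier2, another immediate early gene, stood at 14.9, 17.4, 16.4 and 14.6 CPM in knockouts 1 to 4, and controls 3 and 4 lay among them while controls 1 and 2 lay below, at 10.8 and 13.3 CPM (log2 fold change 0.23, SE 0.13). Phlda1, a pleckstrin homology domain gene, stood at 6.80 to 7.89 CPM in the knockouts and at 4.51 CPM in control 1 and 6.76 to 8.38 CPM in the other controls (log2 fold change 0.13, SE 0.18).

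Heat shock genes, which respond to tissue stress, did not pass either: of 6, none rose or fell, and their median log2 fold change was 0.34. Their summed level was 1886 to 2218 CPM in the knockouts and 1563 to 1920.0 CPM in the controls, and its part in the early response values was not tested.

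Further genes of the pathway gave 1 call in the main test, apart from receptors and ligands. Of 36 other cascade genes 1 fell, against 1.35% of all genes, and 35 did not pass (median log2 fold change 0.04). None of 13 other feedback genes passed (median 0.15); the smallest p were those of Dusp8, a phosphatase of the stress kinases, at 0.29 (edgeR adjusted p = 0.104), and Errfi1, an inhibitor of the EGF receptor, at 0.25 (adjusted p = 0.208). None of 28 other early response genes passed (median 0.25), of which Atf3, a stress-induced transcription factor, was at 0.61 (adjusted p = 0.0637) and Jun, a partner of Fos in AP-1, at 0.30 (adjusted p = 0.0771). DESeq2 called Atf3 (adjusted p = 0.0102) and Jun (adjusted p = 0.0356), against 8.47% of the genes it gave an adjusted p. Atf3 also passed in edgeR with no filter on low counts (adjusted p = 0.0399) and with the lens covariate (adjusted p = 0.0454). Those fits called 690 and 267 of all genes.

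Receptor tyrosine kinases and their ligands, which feed the cascade, held the other calls of the main test. Of 30 genes 4 rose and none fell, against 1.2% of all genes called higher, and the median log2 fold change was 0.20. The list was chosen with earlier results of these data known, so its share of calls is a description with no test. Met, the receptor of hepatocyte growth factor, rose by 0.85 on the log2 scale (SE 0.16, edgeR adjusted p = 0.0175), at 10.5, 12.1, 10.4 and 15.5 CPM in knockouts 1 to 4 and 7.71, 6.54, 6.72 and 5.95 CPM in controls 1 to 4. Every knockout was above every control, and the call ended without control 2 or 3 (adjusted p up to 0.0612) and with the library number as a block (adjusted p = 0.054). Fgf2, a ligand that Müller glia make after injury, rose by 0.83 on the log2 scale (edgeR adjusted p = 0.0207). Csf1 and its receptor Csf1r, the growth factor pair of microglia, rose by 0.87 (adjusted p = 0.0305) and 1.03 (adjusted p = 0.0048), and Csf1r stood at 22.8, 21.9, 27.3 and 26.0 CPM in knockouts 1 to 4 and at 15.05, 11.7, 8.93 and 12.4 CPM in controls 1 to 4. Csf1r is itself 1 of the 9 microglial markers, whose sum was higher in every knockout, and its part in these values was not tested. Csf1r kept its call in each of the 8 fits without 1 library. Fgf2 lost its call when any 1 of knockouts 3 and 4 and controls 1 to 3 was left out (the largest adjusted p was 0.0746). Csf1 lost it when any 1 of knockouts 1, 3 and 4 and controls 2 and 3 was left out (the largest was 0.122) and with the lens covariate, where its log2 fold change was 0.82 (adjusted p = 0.056). Without the 3 lens-rich libraries, which leaves 3 knockouts against 2 controls, none of the 4 passed, at 0.90, 0.64, 0.66 and 0.79 for Met, Fgf2, Csf1 and Csf1r.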

How the data were processed

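The submitters' processing notes list fastp, HISAT2 and HTSeq, with mm10 as the build; no versions, annotation or strand setting were stated in the sources used here. The deposited counts are the authors' whole reads per gene. The deposited FPKM are the same numbers divided by the authors' library total and a fixed length per gene. Every column was matched to a sample by title. FPKM were used only to compare levels between genes.

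The main test used edgeR 4.0.16 (R 4.3.3): genes kept by filterByExpr (minimum count 10, minimum total 15), TMM scaling, a quasi-likelihood test of knockout against control with no covariate, two-sided, Benjamini-Hochberg adjustment over all 16861 genes tested, threshold 0.05. CPM use the TMM-scaled library size, and 1 count is 0.0280 to 0.0314 CPM. The SE is the size of the log2 fold change over the root of its F statistic, and 95% intervals follow from it. DESeq2 1.42.0 and limma 3.58.1 (voom) were alternatives, with others given under the closing section. No interval covers PCR duplicates.

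The members and all lists were chosen with earlier results of these data known. Named are all 41 members and, of each further pathway list, up to 4 genes past the threshold or else the 2 with the smallest p; some of these are not reported here. Other genes named were picked after their values were seen. Positions and start sequences are those of RefSeq for GRCm38.p6, matched by Entrez identifier or symbol (start sequences for 29 of 41). Another RefSeq gene overlaps 13 members, among them Dusp6, Rps6ka1, Map2k1, Braf, Araf, Sos1 and Nf1. Without a stated strand setting, how reads were counted in these overlaps is not known.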

Additional observations from a re-analysis of the deposited data

Results flagged for a closer look

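In 6 of 82 groups of 4 libraries, 1 library stood far from the other 3; chance gives about 1 in 20. Control 1 was low for Mapk3, at 61.6 CPM, with the rest of the controls at 72.4 to 73.9 CPM. Control 3 was low for Rps6ka1, at 5.48 CPM against 7.37 to 7.51 CPM, for Fos, at 10.1 CPM against 15.8 to 16.3 CPM, and for Fosl1, at 0.0616 CPM against 0.188 to 0.207 CPM. Control 4 was high for Etv1, at 16.7 CPM against 9.97 to 10.6 CPM. Knockout 4 was high for Egr2, at 0.372 CPM or 13 counts, where knockouts 1 to 3 held 3 counts each (0.0840 to 0.0869 CPM).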

How the results depend on the processing

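The number of all genes called, 430, was 690 with no filter on low counts, 267 with the log2 lens sum as a covariate, 15 without the 3 lens-rich libraries, 1320 with DESeq2 and 108 to 3209 with 1 library left out; with RLE factors, library totals only, a stricter filter (1 CPM in 4 libraries), robust dispersions and limma-voom it stayed within 1.5 times of 430. Called ERK genes, none in the main test, were 1 cascade and 1 early response gene with DESeq2, and with 1 library left out 0 to 3 cascade, 0 to 1 feedback and 0 to 1 early response genes. With 1 library left out, all calls came without control 4 (Junb, Map2k1, Nras, Rps6ka1 and Spry2), when 18.7% of all genes passed. Without the lens-rich libraries the cascade median was -0.0131 and the feedback median 0.11. With 1 library left out the cascade median ran from 0.05 (without knockout 3) to 0.09, the feedback median from 0.11 (without knockout 2) to 0.25 and the early response median from 0.13 to 0.27. Signs turned without the lens-rich libraries for Egfr (-0.095), Etv4 (-0.12), Etv5 (-0.038) and Myc (-0.45), and with 1 library left out for Sos2 (-0.074 to 0.0012), Myc (-0.49 to 0.50), Phlda1 (-0.022 to 0.25) and Etv1 (-0.38 to 0.056). The cause was not tested.

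Same-numbered knockout and control libraries deviated from their group means with correlations across genes of 0.21, -0.041, 0.12 and 0.0063. Only number 1 correlated best with its own. These correlations cannot decide whether the numbers pair the libraries, since they cover all genes tested and few libraries. With the library number as a replicate block 228 genes and no ERK gene were called.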
